A study of Mus musculus with 6 samples.

Results

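Major urinary proteins (MUPs) are small lipocalins that male mouse liver makes in large amounts and that leave the body in the urine, where they bind pheromones and mark the scent of the individual. The 10 *Mup* genes described here are *Mup1*, *Mup3*, *Mup7*, *Mup11*, *Mup12*, *Mup14*, *Mup16*, *Mup17*, *Mup20* and *Mup21*, taken by symbol from the 54446 genes that the deposited tables list. They were chosen with earlier results of these data known, and are set out as 7 near-identical genes (*Mup1*, *Mup7*, *Mup11*, *Mup12*, *Mup14*, *Mup16*, *Mup17*) and 3 sequence-distinct ones (*Mup3*, *Mup20*, *Mup21*). A further 38 rows of the tables are other *Mup* genes (11) and *Mup* pseudogenes (27). Some of these, such as *Mup4*, *Mup5* and *Mup6*, also share little sequence with other genes, though they are not in the sequence-distinct class.

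The libraries came from the livers of 3 WT mice and of 3 *Fmo5*-/- mice, which are homozygous for a disrupted gene of flavin-containing monooxygenase 5, with 1 library of single reads of 75 bases per mouse. All were males of 32 weeks on the C57BL/6 background (C57BL/6J in the study's methods), bred in 1 facility, fed standard chow and kept in adjacent cages, and their livers were taken in the morning. Neither litters nor the cage of each mouse are given, and the sample numbers of the 2 genotypes fall in separate ranges, so that a batch tied to those numbers and the genotype cannot be told apart. The question is whether *Mup* transcripts differ between the genotypes.

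*Mup* transcription in hepatocytes is driven by growth hormone, which acts through its receptor and STAT5B in pulses that are more marked in males, and by androgens, glucocorticoids and thyroid hormone. Liver transcription factors keep the genes on, and ZHX2 and ZBTB20 act on genes of the same kind in postnatal liver. MUP20, also called darcin, is the pheromone that attracts females, whereas the near-identical proteins form most of the individual urine pattern in many strains.

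The near-identical genes differ by so few bases that a read of 75 bases seldom tells them apart. In GENCODE vM21 (GRCm38, the same build as mm10) all 10 genes lie on the minus strand of chromosome 4, in a cluster of *Mup* genes and pseudogenes from 59956804 to 62150863. *Mup7* lies at 60066469 to 60070475, *Mup1* at 60498012 to 60501960, *Mup11* at 60658466 to 60662411, *Mup12* at 60737383 to 60741326 and *Mup14* at 61300023 to 61304000. *Mup16* lies at 61515592 to 61519531, *Mup17* at 61591929 to 61595871, *Mup20* at 62050234 to 62054158, *Mup3* at 62083476 to 62087342 and *Mup21* at 62147932 to 62150863. Each has 7 exons in its main transcript, except *Mup21* with 6, and no other annotated gene overlaps them. Within the 21 pairs of near-identical genes the coding bases were 98.5% to 99.6% identical, with 2 to 8 differing bases. *Mup20* was 90.6% to 91.5% identical to them, *Mup3* 85.2% to 86.8% and *Mup21* 86.0% to 86.9%, while *Mup3* and *Mup21* were 96.3% identical to each other.

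The following coding stretch, as long as 1 read, shows why these reads are hard to place. It is the same in all 7 near-identical genes, for which *Mup17* stands, and it crosses the junction of the first and second coding exons. Capitals mark the bases that differ from the near-identical sequence, and spans are those from the first to the last base, intron included (GRCm38, minus strand: *Mup17* chr4:61595306-61595718, *Mup20* chr4:62053593-62054004, *Mup3* chr4:62086913-62087177, *Mup21* chr4:62150308-62150707).
Mup17: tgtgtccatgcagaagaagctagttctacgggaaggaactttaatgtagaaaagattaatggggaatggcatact
Mup20: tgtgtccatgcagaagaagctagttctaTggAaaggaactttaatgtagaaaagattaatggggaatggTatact
Mup3: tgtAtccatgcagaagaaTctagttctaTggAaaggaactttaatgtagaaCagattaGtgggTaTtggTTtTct
Mup21: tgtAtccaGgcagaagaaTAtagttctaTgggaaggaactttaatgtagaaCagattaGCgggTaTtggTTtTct
The first sequence occurs in the transcripts of 15 genes, that of *Mup20* in 2 (the other is the pseudogene *Mup-ps19*), and those of *Mup3* and *Mup21* in 1 each.

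An overlapping stretch inside the first coding exon is where the near-identical genes vary most, with 5 different sequences among the 7. Capitals again mark bases unlike the majority (minus strand: *Mup17* chr4:61595676-61595750, *Mup1* chr4:60501765-60501839, *Mup12* chr4:60741131-60741205, *Mup7* chr4:60070216-60070290, *Mup16* chr4:61519336-61519410).
Mup17: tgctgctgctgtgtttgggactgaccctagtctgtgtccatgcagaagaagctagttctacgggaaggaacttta
Mup1: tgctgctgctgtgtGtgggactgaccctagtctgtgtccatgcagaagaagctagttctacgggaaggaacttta
Mup12: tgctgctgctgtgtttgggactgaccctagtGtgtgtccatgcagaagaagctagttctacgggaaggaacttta
Mup7: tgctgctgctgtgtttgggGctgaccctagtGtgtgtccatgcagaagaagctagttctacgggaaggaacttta
Mup16: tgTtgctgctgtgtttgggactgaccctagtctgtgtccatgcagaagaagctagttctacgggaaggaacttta
*Mup11* has the sequence of *Mup17* here, and *Mup14* that of *Mup7*. Only the sequences of *Mup1* and *Mup12* occur in no other gene's transcripts.

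Over whole transcripts, the share of read-length windows found in no other gene's transcripts was 5.41% for *Mup14*, 9.50% for *Mup1*, 14.2% for *Mup7*, 14.3% for *Mup11*, 15.5% for *Mup16*, 19.7% for *Mup12* and 31.3% for *Mup17*. It was 56.4% for *Mup20*, 89.7% for *Mup21* and 93.2% for *Mup3*. The counts keep the reads that map to 1 place in the genome, and where these lie in the transcripts was not examined. Reads that map to several places were 11.8%, 13.1% and 12.6% of the reads of the WT libraries and 10.9%, 10.4% and 11.5% of the *Fmo5*-/- libraries, so the genotypes did not overlap in this share. The files do not assign these reads to genes, and their part in the differences below was not tested.

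RefSeq promoters (GRCm38.p6) were matched for 6 of the 10 genes: *Mup3*, *Mup7*, *Mup11*, *Mup14*, *Mup17* and *Mup21*. The 50 bases that end in a TATATAA motif, in capitals, are shown for a near-identical gene and for *Mup3* and *Mup21*, because they are alike in both classes next to the motif (minus strand: *Mup17* chr4:61595851-61595900, *Mup3* chr4:62087322-62087371, *Mup21* chr4:62150843-62150892).
Mup17: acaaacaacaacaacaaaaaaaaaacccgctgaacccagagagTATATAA
Mup3: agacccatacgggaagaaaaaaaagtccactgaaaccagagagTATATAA
Mup21: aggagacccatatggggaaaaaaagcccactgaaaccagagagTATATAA
TATATAA was found on either strand in 5 of these 6 promoters (not in the window of *Mup7*) and in 3.24% of 32851 promoters of 300 bases. TTCNNNGAA, the letters of the STAT5 motif, searched in the same way, was in 0 of the 6 and in 8.3% of all. The motifs do not overlap each other, and a missing match says only that the letters are not in this window.

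*Mup* transcripts were abundant in all 6 livers. Values per gene are normalized counts throughout, the counts over the TMM-scaled size of the library times the average of the 6 sizes. The 10 genes took 1.32%, 1.75% and 1.72% of the counts on genes in the WT mice and 1.26%, 0.923% and 1.41% in the *Fmo5*-/- mice. *Mup3* was the 7th most counted gene of the tables, *Mup20* the 62nd and *Mup7* the 63rd. As scaled counts per kilobase of exon (RPKM scale, with all exons of the gene as length), the WT levels ran from *Mup3* (8905 ± 354, SD, n = 3) through *Mup20* (2613 ± 967), *Mup7* (2302 ± 814), *Mup17* (770 ± 326), *Mup14* (413 ± 122), *Mup11* (298 ± 121), *Mup21* (288 ± 78.9), *Mup12* (131 ± 22.9) and *Mup1* (78.3 ± 16.6) to *Mup16* (76.8 ± 31.1). In this order, neighbours overlapped among the 3 WT mice from *Mup20* to *Mup7*, along the run from *Mup17* to *Mup21*, and from *Mup1* to *Mup16*. The order depends on the length used: per kilobase of windows found in no other gene's transcripts, *Mup7* came first at 17486, *Mup14* second at 12412 and *Mup3* came after them at 11215.

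**Figure D1:**
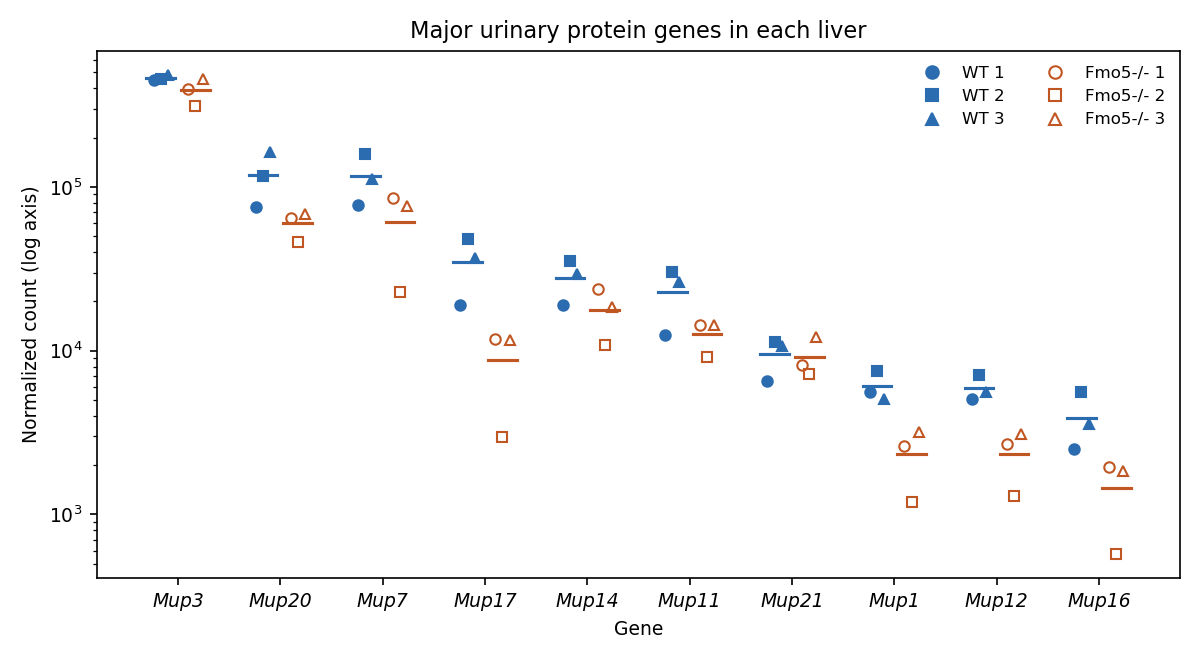
Normalized counts (log axis) of the 10 *Mup* genes in each of the 6 livers, filled symbols for WT and open symbols for *Fmo5*-/- mice, with lines at the group means (n = 3). *Fmo5*-/- replicate 2, the open square, is the lowest of the 6 in 9 of the 10 genes, and WT replicate 2, the filled square, is the highest in 7.

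All 10 genes had a lower mean in *Fmo5*-/- mice, and none of the 10 passed the test. With the quasi-likelihood test of edgeR, adjusted by Benjamini and Hochberg over 16734 genes, 0 of 10 had an adjusted p under 0.05, against 1.37% of all tested genes. At an unadjusted p under 0.05 there were 4 (*Mup1*, *Mup12*, *Mup17*, *Mup20*), all lower, where 10.2% of all genes were lower at that limit. DESeq2's Wald test on the same counts called the same 4 genes, against 4.21% of genes called lower by it. In 5 genes (those 4 and *Mup16*) the 3 *Fmo5*-/- mice lay below the 3 WT mice, as did 13.5% of all tested genes. The median log2 fold change of the 10 genes, *Fmo5*-/- over WT, was -0.95, and over all tested genes it was 0.0058. The labels do not say whether the mice of a genotype came from separate litters, and fewer hepatocytes and less RNA per hepatocyte cannot be told apart in bulk liver. The 8 hepatocyte markers had a median log2 fold change of -0.08 (range -0.24 to 0.17), and edgeR called 0 of them (0 at an unadjusted p under 0.05, 0 by DESeq2).

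Among the near-identical genes *Mup17* had the lowest fold change. Its normalized counts were 19082, 48357 and 37045 in the WT mice and 11767, 2969 and 11687 in the *Fmo5*-/- mice. The genotypes did not overlap, and *Fmo5*-/- replicate 2 was far below the other *Fmo5*-/- mice. The means were 34828 ± 14763 and 8808 ± 5056 (SD over 3 mice each), and the log2 fold change was -1.98 (95% confidence interval -3.74 to -0.23), with an adjusted p of 0.19 from edgeR and of 0.0155 from DESeq2. Over edgeR's 13 alternative settings its adjusted p ran from 0.166 to 0.379.

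*Mup1* and *Mup12* are less abundant. *Mup1* measured 5604, 7496 and 5051 in WT livers against 2608, 1189 and 3183 in *Fmo5*-/- livers. The log2 fold change came to -1.38 with a standard error of 0.39, and the adjusted p was 0.133 in edgeR and 0.0145 in DESeq2. *Mup12* measured 5042, 7058 and 5629 in WT livers against 2676, 1296 and 3085 in *Fmo5*-/- livers. The log2 fold change came to -1.33 with a standard error of 0.34, and the adjusted p was 0.106 in edgeR and 0.0136 in DESeq2. In both genes every *Fmo5*-/- mouse lay below every WT mouse. *Mup12* was the 1 gene of the 10 that edgeR called in any alternative: without *Fmo5*-/- replicate 2 its adjusted p was 0.0348, within a range of 0.0348 to 0.25 over the settings.

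*Mup16*, the lowest of the 10 per kilobase of all exons, measured 2517, 5606 and 3542 in WT livers against 1958, 574 and 1836 in *Fmo5*-/- livers, again without overlap. Its log2 fold change of -1.42 had a 95% confidence interval of -2.93 to 0.10 and an adjusted p of 0.253 from edgeR and 0.131 from DESeq2.

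*Mup7*, *Mup11* and *Mup14*, which held most of the near-identical counts together with *Mup17*, overlapped between the genotypes. *Mup7* measured 77665, 159314 and 111134 in WT livers against 85046, 22697 and 76732 in *Fmo5*-/- livers. *Mup11* measured 12454, 30278 and 26109 in WT livers against 14263, 9106 and 14373 in *Fmo5*-/- livers. *Mup14* measured 19010, 35222 and 29347 in WT livers against 23809, 10803 and 18477 in *Fmo5*-/- livers. In all 3 genes WT replicate 1 lay between or below *Fmo5*-/- replicates 1 and 3, and WT replicate 2 and *Fmo5*-/- replicate 2 were the highest and the lowest. The log2 fold changes were -0.92, -0.87 and -0.65, with adjusted p of 0.43, 0.247 and 0.341 from edgeR and with confidence intervals that included 0. When single libraries were left out they ran from -1.22 to -0.52, from -1.16 to -0.61 and from -0.93 to -0.40.

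*Mup20*, encoding darcin, measured 75829, 115799 and 163316 in WT livers against 64944, 46321 and 68609 in *Fmo5*-/- livers. The genotypes did not overlap, though WT replicate 1 was only slightly above the highest *Fmo5*-/- mouse. The means were 118315 ± 43797 and 59958 ± 11952 (SD over 3 mice each), and the log2 fold change was -0.98 (95% confidence interval -1.67 to -0.29, adjusted p = 0.122 from edgeR, 0.0487 from DESeq2).

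*Mup3*, the family's gene with the most counts, measured 449140, 458325 and 484676 in WT livers against 397590, 313888 and 456733 in *Fmo5*-/- livers. The third *Fmo5*-/- mouse lay within the WT range. Its log2 fold change was -0.25 (95% confidence interval -0.56 to 0.06, adjusted p = 0.326 from edgeR and 0.262 from DESeq2). Leaving out single libraries moved it from -0.39 to -0.12.

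*Mup21* measured 6523, 11371 and 10601 in WT livers against 8176, 7167 and 12184 in *Fmo5*-/- livers, with the highest count in an *Fmo5*-/- mouse and the lowest in a WT mouse. Its log2 fold change was -0.05 (95% confidence interval -0.70 to 0.60, adjusted p = 0.935 from edgeR and 0.916 from DESeq2), and leaving out single libraries moved it from -0.31 to 0.10.

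The libraries behind these values varied more in *Mup* genes than in most others. The coefficient of variation among the 3 WT mice was 3.98% for *Mup3* and 17.5% to 42.4% for the other 9 genes, with a median of 32.4% over the 10, and it was 18.4% to 57.4% among the *Fmo5*-/- mice. Over the 7819 genes that averaged at least 500 normalized counts the median was 7.42% in WT and 7.34% in *Fmo5*-/- mice. WT replicate 1 was below WT replicate 2 in all 10 genes and below WT replicate 3 in 9 (the exception was *Mup1*), and *Fmo5*-/- replicate 1 was above WT replicate 1 in 4 of the 10.

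**Figure D2:**
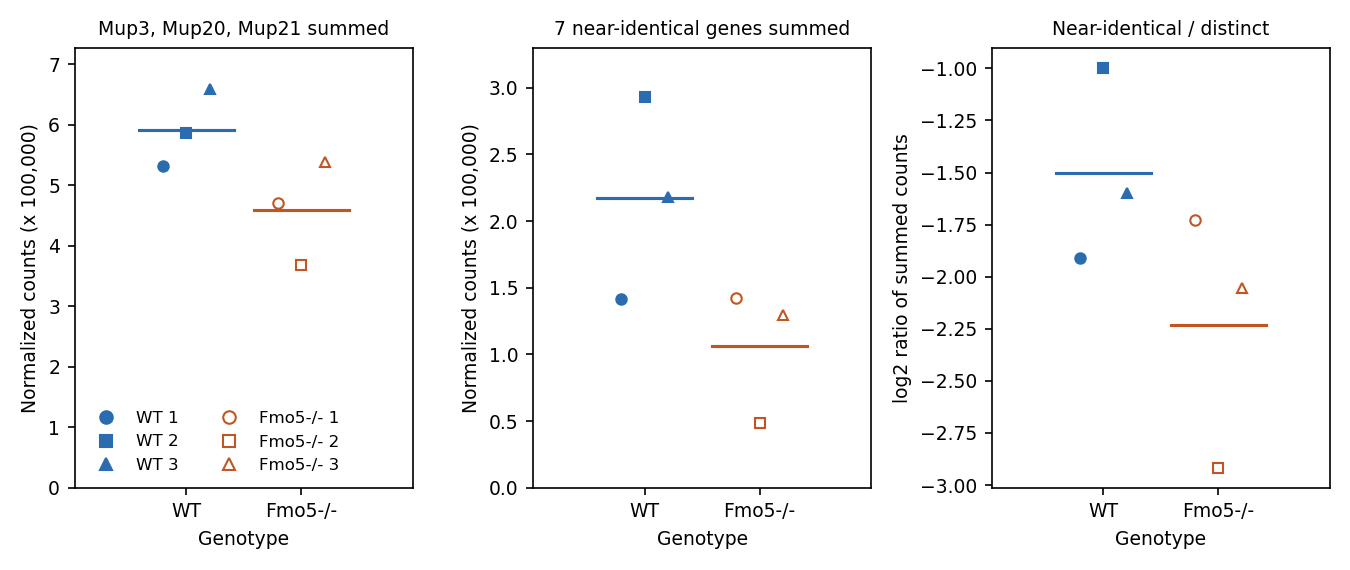
Summed normalized counts of the 3 sequence-distinct genes (left) and the 7 near-identical genes (middle), and the log2 ratio of the second sum to the first (right), in each liver with lines at the group means. In the middle panel WT replicate 1 and *Fmo5*-/- replicates 1 and 3 lie together between 129372 and 142128, with WT replicate 2 far above them and *Fmo5*-/- replicate 2 far below.

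Summed over each class, the near-identical genes differed more between the group means than the sequence-distinct ones. The near-identical sum was 141374, 293331 and 217857 in the WT mice and 142128, 48634 and 129372 in the *Fmo5*-/- mice. The genotypes overlapped in this sum, and the log2 ratio of the means was -1.03. The sum of *Mup3*, *Mup20* and *Mup21* was 531492, 585495 and 658593 in the WT mice and 470710, 367375 and 537525 in the *Fmo5*-/- mice, a log2 ratio of -0.37, also with overlap. Most of this second sum was *Mup3* in every library. The ratio of the sum lay between the -0.25 of *Mup3* and the -0.98 of *Mup20*. *Mup20* was below *Mup7*, *Mup11* and *Mup14* of the near-identical class. The log2 ratio of near-identical to sequence-distinct counts was -1.91, -0.997 and -1.60 in the WT mice and -1.73, -2.92 and -2.05 in the *Fmo5*-/- mice. The means were -1.50 ± 0.46 and -2.23 ± 0.61 (SD, n = 3 each), and the first *Fmo5*-/- mouse lay above the first WT mouse. With 3 mice against 3 an exact permutation test cannot give a p below 0.1, and none was made of these sums. *Mup3* made up 52.2% to 66.8% of the counts of the 10 genes in WT mice and 64.9% to 75.5% in *Fmo5*-/- mice.

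The rest of the family had lower means as well. All 22 other *Mup* rows that passed the filter on low counts (11 genes and 11 pseudogenes) had a lower mean in *Fmo5*-/- mice, with log2 fold changes from -2.65 to -0.64. Of all tested genes 49.2% had a log2 fold change below 0. EdgeR called 4 of the 22, all lower, against 0.693% of all genes called lower, and 20 were lower at an unadjusted p under 0.05, against 10.2% of all genes. DESeq2 called 17 of the 22, all lower, against the 4.21% of genes it called lower. In 20 of the 22 the genotypes did not overlap, the exceptions being *Mup8* and *Mup-ps20*, where 13.5% of all tested genes were lower without overlap.

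*Mup15* had the lowest fold change of the tested rows: its normalized counts were 56.1, 180.8 and 97.1 in the WT mice and 22.4, 11.9 and 18.7 in the *Fmo5*-/- mice (log2 fold change -2.65, standard error 0.46, adjusted p = 0.0430 from edgeR). None of the windows of its annotated transcript is unique to it, as in *Mup2* and *Mup19*, and where its 366 counted reads lie was not examined. *Mup10* measured 90.0, 136.1 and 113.5 in WT livers against 53.1, 32.1 and 50.1 in *Fmo5*-/- livers (log2 fold change -1.33, standard error 0.25, adjusted p = 0.0468). The pseudogene *Mup-ps12* measured 123.9, 120.5 and 108.4 in WT livers against 29.8, 27.5 and 40.3 in *Fmo5*-/- livers (log2 fold change -1.85, standard error 0.22, adjusted p = 0.00807). *Mup-ps13* measured 451.1, 420.7 and 477.5 in WT livers against 306.5, 246.0 and 269.0 in *Fmo5*-/- livers (log2 fold change -0.72, standard error 0.12, adjusted p = 0.0370). With 1 library left out, edgeR kept *Mup-ps12* in 5 of 6 fits (lost without *Fmo5*-/- replicate 1) and each of the other 3 in 1, with adjusted p up to 0.0558 for *Mup-ps12*, 0.118 for *Mup-ps13*, 0.121 for *Mup10* and 0.13 for *Mup15*. All 4 are rows of few counts, well under those of the 10 genes, and in the pseudogenes the mice of a genotype lay close together.

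**Figure D3:**
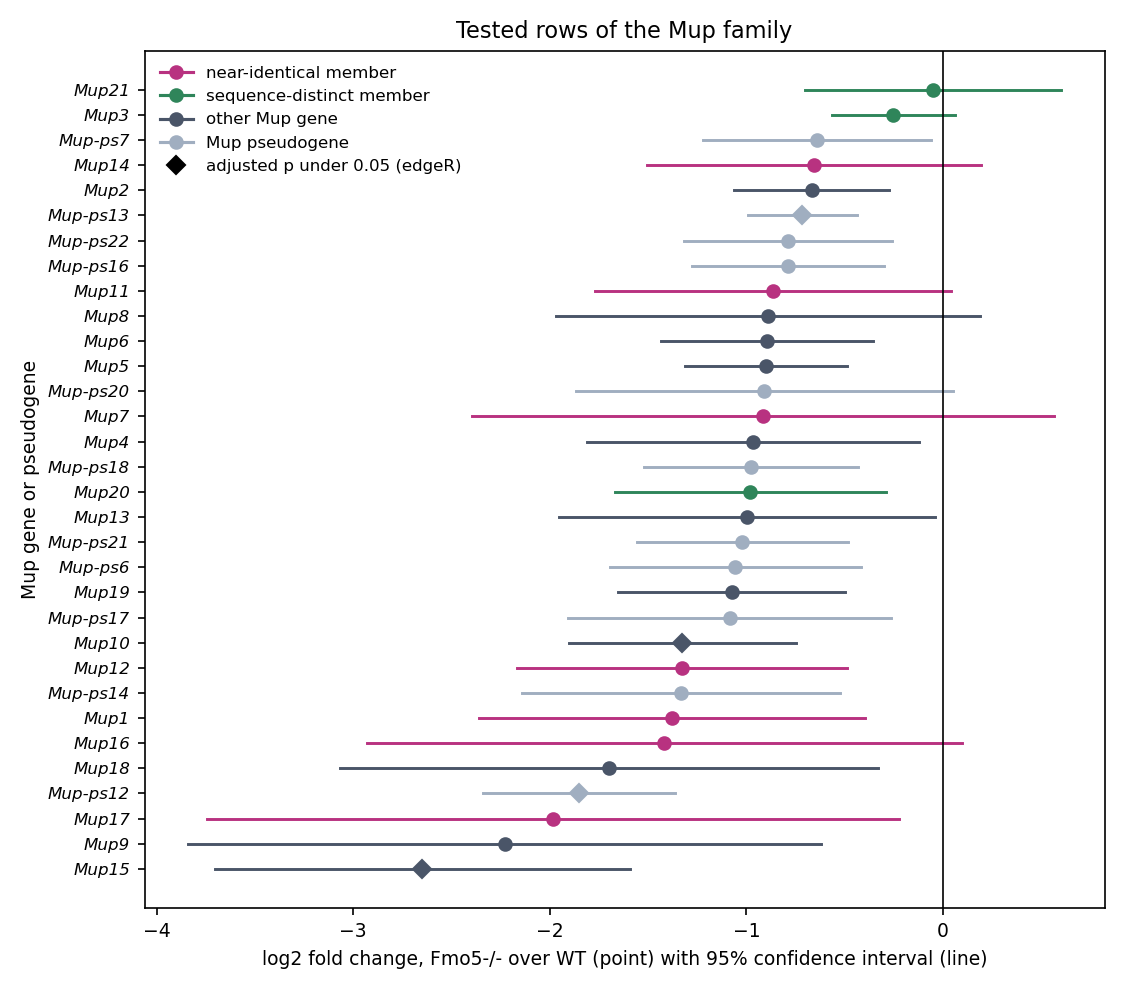
The log2 fold change, *Fmo5*-/- over WT, with its 95% confidence interval, of the 32 tested rows of the *Mup* family, coloured by class, with diamonds where edgeR's adjusted p was under 0.05. All 32 points lie below 0, from -2.65 for *Mup15* to -0.05 for *Mup21*, and the intervals of the near-identical genes are among the widest.

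The other rows ranged widely in the share of sequence of their own. *Mup4*, *Mup5* and *Mup6*, for which 99.6%, 95.4% and 100% of windows are found in no other gene, had log2 fold changes of -0.97, -0.90 and -0.89. Their adjusted p values were 0.179, 0.0554 and 0.0872 from edgeR and 0.0183, 5.16e-05 and 0.00152 from DESeq2, and the genotypes did not overlap in any of them. *Mup5* measured 1008, 1400 and 1414 in WT livers against 731, 531 and 784 in *Fmo5*-/- livers. The pseudogene *Mup-ps22*, the 1 row of the family outside the cluster (chromosome 11, 55123695 to 55123937), measured 1304, 2137 and 1777 in WT livers against 1192, 754 and 1071 in *Fmo5*-/- livers (log2 fold change -0.79, adjusted p = 0.111 from edgeR and 0.00252 from DESeq2). *Mup-ps18*, *Mup-ps20* and *Mup-ps21* in the cluster, with 98.0% to 100% of windows unique, had log2 fold changes of -0.98, -0.91 and -1.02, with adjusted p of 0.0778, 0.252 and 0.0687 from edgeR and 0.000464, 0.104 and 0.000787 from DESeq2. *Mup9* and *Mup18*, with 10.7% and 12.5% of windows unique, had log2 fold changes of -2.23 and -1.70, with adjusted p of 0.138 and 0.164 from edgeR and 0.00805 and 0.0319 from DESeq2. *Mup2*, *Mup8*, *Mup13* and *Mup19* lay from -1.07 to -0.67, and *Mup-ps6*, *Mup-ps7*, *Mup-ps14*, *Mup-ps16* and *Mup-ps17* from -1.33 to -0.64. EdgeR called none of these 9 rows, and DESeq2 called *Mup2*, *Mup19*, *Mup-ps14*, *Mup-ps16* and *Mup-ps17*, with adjusted p from 0.00489 to 0.0493.

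Split at 50% of windows unique, a limit chosen after the values were seen, the 12 rows above it had a median log2 fold change of -0.91 (range -1.09 to -0.05) and the 20 rows below it a median of -1.20 (range -2.65 to -0.64). Every row on both sides had a negative fold change. A read from a shared window fits more than 1 row, and where the counted reads of each row lie was not examined.

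**Figure D4:**
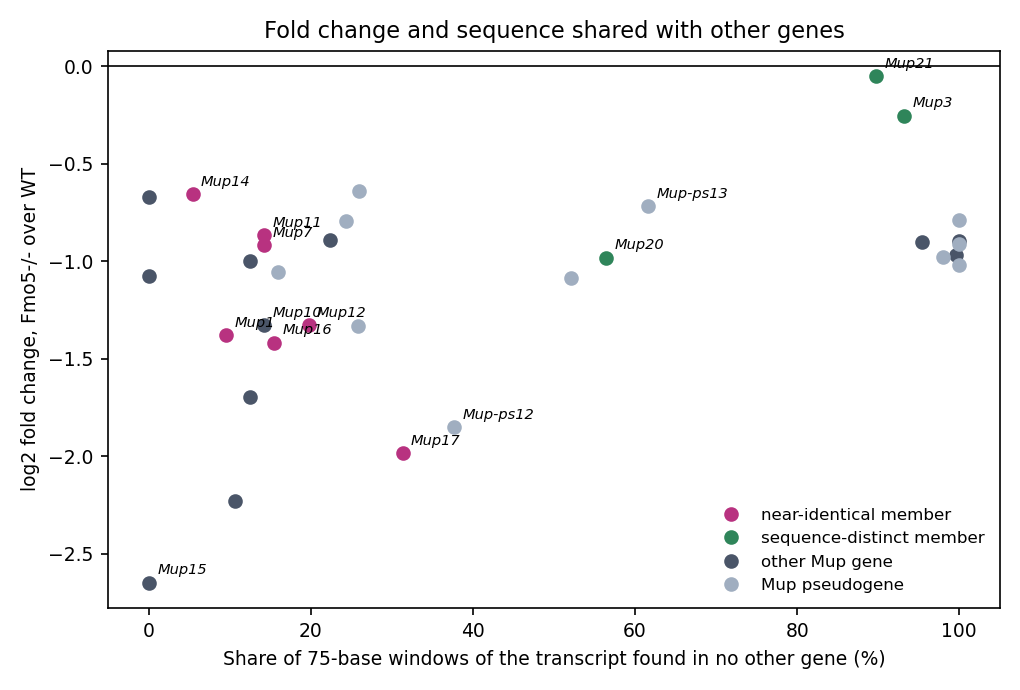
The log2 fold change, *Fmo5*-/- over WT, of the 32 tested *Mup* rows against the share of 75-base windows of the transcript found in no other gene's transcripts (%), coloured by class. Rows near 100% lie between -1.02 and -0.79, below *Mup3* at -0.25 and *Mup21* at -0.05, and the lowest values are at shares under 40%.

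None of the listed genes of the growth hormone axis and none of the listed *Mup* regulators passed the test, in lists of 10 and 13. EdgeR called 1.37% and DESeq2 8.96% of all genes, and 21.8% had an unadjusted p under 0.05 in edgeR. *Fmo5*, the disrupted gene, checks the labels: it measured 30240 to 39808 in WT livers against 1071 to 1194 in *Fmo5*-/- livers. Of 10 genes of the growth hormone and STAT5 axis edgeR called 0, with 0 at an unadjusted p under 0.05 and 0 by DESeq2. Their median log2 fold change was 0.09, with a range of -0.17 to 1.05 and 3 of the 10 below 0. *Ghr*, the growth hormone receptor, averaged 29771 ± 1272 in WT livers and 26773 ± 1747 in *Fmo5*-/- livers (SD over 3 mice), without overlap, at a log2 fold change of -0.15 and an edgeR adjusted p of 0.366. *Stat5b*, its signal transducer, had 3649 ± 434 and 3686 ± 202 (log2 fold change 0.01, adjusted p = 0.951).

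Of 13 regulators of *Mup* genes edgeR also called 0, again with 0 at an unadjusted p under 0.05 and 0 by DESeq2, with a median log2 fold change of 0.06. *Zhx2* and *Zbtb20*, which encode zinc-finger transcription factors, had log2 fold changes of 0.09 and 0.07 (adjusted p = 0.637 and 0.784 from edgeR).

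Of 16 other male-biased genes of the liver edgeR called 0 (3 at an unadjusted p under 0.05, 2 by DESeq2), with a median log2 fold change of -0.08. Of all genes, in either direction, 21.8% had an unadjusted p under 0.05 in edgeR and 8.96% were called by DESeq2. The 2 were *Selenbp2*, a selenium-binding protein, and *Moxd1*, a monooxygenase-like protein, both named after their values were seen. Where these 2 genes lie relative to the disrupted *Fmo5* was not examined. *Selenbp2* measured 3818, 26125 and 23009 in WT livers against 177, 202 and 453 in *Fmo5*-/- livers, without overlap. Its log2 fold change was -6.00 (adjusted p = 0.0736 from edgeR and 6.32e-10 from DESeq2). *Moxd1* measured 2.12, 567 and 573 in WT livers against 16.8, 2.75 and 4.91 in *Fmo5*-/- livers, with overlap. Its log2 fold change was -5.52 (adjusted p = 0.196 from edgeR and 0.0149 from DESeq2). WT replicate 1 was far below the other WT mice in both genes, as it was below them in most *Mup* genes. Without WT replicate 1 edgeR called both, with adjusted p of 0.0384 for *Selenbp2* and 0.00309 for *Moxd1*, and leaving out any other library called neither (adjusted p up to 0.245 and 0.461). Of the 9 tested female-biased genes of 18 listed edgeR called 0 (1 at an unadjusted p under 0.05, *Prlr*, and 0 by DESeq2), with a median of 0.32.

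Among secreted hepatocyte proteins, which share the route of the MUPs out of the cell, edgeR called 0 of 21 (7 at an unadjusted p under 0.05, 3 by DESeq2, beside 21.8% and 8.96% of all genes), and their median log2 fold change was -0.07. The 3 were *Hpx*, *Apoc3* and *Rbp4*, again named after their values were seen, with log2 fold changes of 0.51, -0.31 and -0.23. *Rbp4* encodes the plasma retinol carrier.

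**Figure D5:**
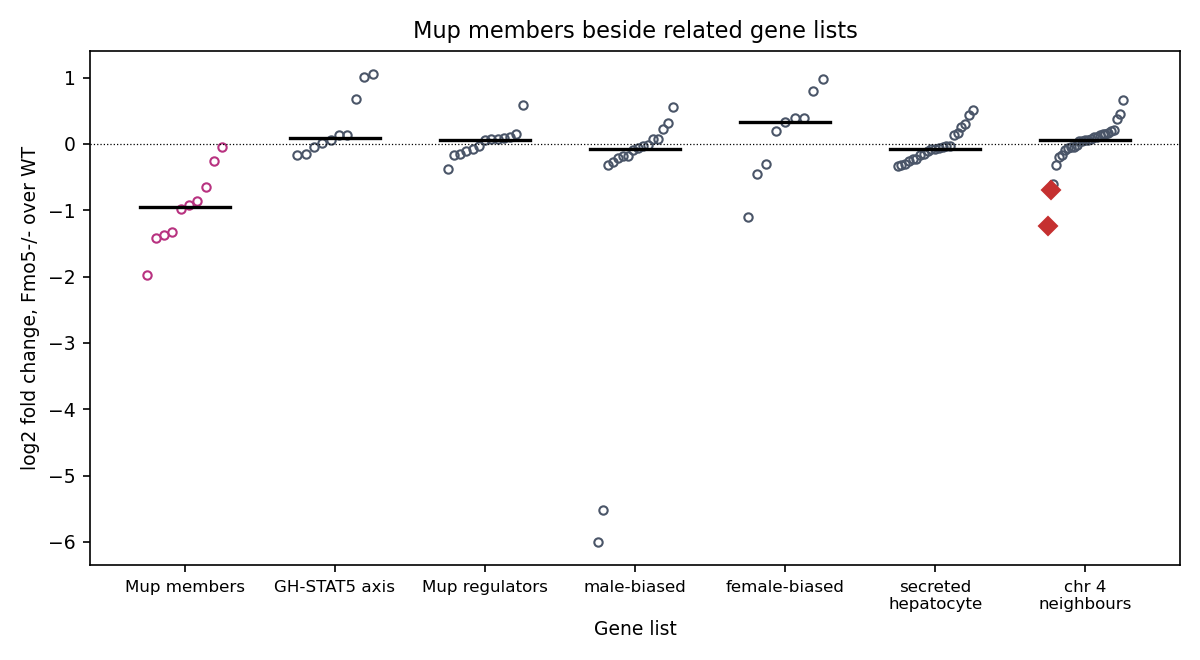
The log2 fold change, *Fmo5*-/- over WT, of each tested gene (points) of 7 lists, with lines at the medians and diamonds where edgeR's adjusted p was under 0.05. The median of the 10 *Mup* genes is -0.95, and those of the other lists lie between -0.08 and 0.32.

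Other genes in and around the cluster on chromosome 4 had mixed signs. Inside it or within 1 Mb of it 27 non-*Mup* genes were tested, 11 with a log2 fold change below 0 (49.2% of all tested genes were), and the median was 0.06. EdgeR called 2 of them, both lower, where 0.693% of all genes were called lower. *Hsdl2*, a hydroxysteroid dehydrogenase-like protein (59581563 to 59618689), measured 4792, 4426 and 3599 in WT livers against 2767, 2541 and 2598 in *Fmo5*-/- livers (log2 fold change -0.70, standard error 0.11, adjusted p = 0.0262). *Gm13775* lies inside the cluster (61783123 to 61801286), on the plus strand, overlaps the pseudogene *Mup-ps16* and shares read-length windows with *Mup-ps13* and other *Mup* pseudogenes. It measured 1234, 1000 and 781 in WT livers against 433, 388 and 457 in *Fmo5*-/- livers (log2 fold change -1.24, standard error 0.16, adjusted p = 0.0133). Without *Fmo5*-/- replicate 1 neither call was kept (adjusted p = 0.0898 for *Hsdl2* and 0.0881 for *Gm13775* from edgeR, within ranges of 4.5e-10 to 0.0921 and 1.53e-22 to 0.0881 over its settings), and *Hsdl2* was also lost without WT replicate 1, WT replicate 2 or *Fmo5*-/- replicate 2.

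The pattern of the summed 10 genes over the 6 livers was followed most closely by *Smarcad1*, *Lta4h*, *Vapa*, *Cr1l* and *Cpb2* among 7803 other genes that averaged at least 500, with Pearson's r of log2 CPM of 0.991, 0.986, 0.983, 0.982 and 0.981 over 6 libraries. The points share libraries and scaling, and 147 of the 7803 genes had an r above 0.9. None of the 5 was called, and their log2 fold changes lay between -0.19 and -0.10, far smaller than those of most *Mup* genes. *Cpb2*, a hepatocyte carboxypeptidase of the plasma, had 15342, 16483 and 16291 normalized counts in the WT mice and 15102, 14084 and 15784 in the *Fmo5*-/- mice. Within the family, each gene against the sum of the other 9 gave r from 0.871 to 0.980, except *Mup21* with 0.611.

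Markers of immune cells differed in summed level between the genotypes beside these values. Hepatocyte markers (8 of 8 tested) summed to between 5347080 and 6875530 normalized counts in WT and between 5469500 and 6760380 in *Fmo5*-/- mice. Most of this sum was *Alb*, at 4085760 to 5404120 in WT and 4099780 to 5381170 in *Fmo5*-/- mice. Kupffer cell markers summed to between 10371 and 12374 in WT and between 16301 and 29330 in *Fmo5*-/- mice, with a higher mean in all 8 and no overlap between the genotypes in 7, where 13.9% of all tested genes were higher without overlap. DESeq2 called 7 of these 8 markers, 4 of the 8 T and B cell markers and 2 of the 3 tested neutrophil markers, all higher, where DESeq2 called 8.96% of all genes in either direction and edgeR 1.37%. EdgeR called 1 Kupffer cell marker (*Clec4f*, a Kupffer cell lectin, log2 fold change 0.70, adjusted p = 0.0275), a call lost without WT replicate 1, WT replicate 2, *Fmo5*-/- replicate 1 or *Fmo5*-/- replicate 2 (adjusted p up to 0.102). It also called the neutrophil marker *Csf3r*, the receptor of granulocyte colony-stimulating factor (log2 fold change 1.25, adjusted p = 0.0468), a call kept in 1 of 6 fits with a library left out, that without *Fmo5*-/- replicate 3 (adjusted p up to 0.134). T and B cell markers summed to between 781 and 1001 in WT and between 1109 and 2350 in *Fmo5*-/- mice, and the 3 tested of 8 neutrophil markers to between 139 and 240 and between 290 and 564, with *Camp*, *Mpo* and *Ly6g* at 0 in 1 or more libraries. *Fmo5*-/- replicate 2, lowest in 9 of the 10 *Mup* genes, had the highest sums of T and B cell and of neutrophil markers. Endothelial, stellate and cholangiocyte sums overlapped between the genotypes. DESeq2 called 1 of the 8 endothelial markers, *Fcgr2b*, lower in *Fmo5*-/- mice (log2 fold change -0.44, adjusted p = 0.0148 from DESeq2). EdgeR called 0 of these 8. The part of these cells in the *Mup* values was not tested.

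The WT libraries had 44886286 to 49926557 counts on genes and the *Fmo5*-/- libraries 48170882 to 52338675, and every one of the 10 *Mup* genes had at least 625 counts in each library. *Fmo5*-/- replicate 2 had 49095879 counts on genes, near the middle of the 6. Of its reads 8.63% fell in no gene, beside 8.28% in *Fmo5*-/- replicate 3 and 6.86% to 7.02% in the other libraries.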

How the data were processed

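The authors clipped single reads of 75 bases, mapped them to mm10 with STAR and had STAR count the uniquely mapped reads per gene. They deposited these raw counts per library, for both strands together and for each strand alone. The annotation release is not given in the sources used here. A deposited table of the whole series holds, per library, signal values that are the counts divided by 1 factor per library. Its further columns hold the authors' comparison (mean, fold change, its error, statistic and p-values) and were not used.

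Counts of both strands were compared in R 4.3.3 with edgeR 4.0.16 (filterByExpr with a minimum count of 10, TMM, robust quasi-likelihood fit and test on genotype alone, Benjamini-Hochberg adjustment over 16734 genes, called at an adjusted p under 0.05). This test was tested on simulated data. Intervals are 95% confidence intervals. The alternatives were DESeq2 1.42.0, other scalings and filters, each strand alone and leaving out each library. Sequences came from GENCODE vM21 transcripts and RefSeq promoters. Coding sequences are those of the longest coding transcript, and a window counts as shared where the transcripts of another gene hold it on either strand.

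The 10 genes, the gene lists and the comparisons were chosen with earlier results of these data known. The genes named are *Fmo5*, the 10 *Mup* genes, other *Mup* rows with at least 100 counts in all, the 5 other genes most correlated with the sum, called genes of the lists, and *Ghr*, *Stat5b*, *Zhx2* and *Zbtb20*. *Cish*, *Socs2*, *Prlr*, the secreted and male-biased genes and the cell type markers were named outside this rule, after their values were seen. A few other genes that the rule names are not reported here. *Mup22*, which shares windows with these genes, is not analysed here.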

Additional observations from a re-analysis of the deposited data

How the results depend on the processing

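EdgeR called 0 of the 10 *Mup* genes under every other scaling, filter and strand setting, and between 0 and 1 when 1 library was left out (*Mup12*, without *Fmo5*-/- replicate 2), whereas DESeq2 called 4. Of the other *Mup* genes and pseudogenes edgeR called 4 of 22, DESeq2 17 (it called 8.96% of all genes), edgeR with no filter on low counts 17 of 33 (1989 of all 34200 genes) and edgeR with a mean of 500 required before the fit 0 of the 6 left. Leaving out 1 library gave between 0 (without *Fmo5*-/- replicate 1) and 6 (without *Fmo5*-/- replicate 3), with 1 without WT replicate 2, WT replicate 3 or *Fmo5*-/- replicate 2. The 6 gene lists held 10, 13, 16, 9, 21 and 27 tested genes, of which edgeR called 2, beside 1.37% of all genes. These 2 calls became 10 with no filter (1989 of all 34200 genes) and 7 with DESeq2 (8.96% of all genes). When 1 library was left out they became 0 (without *Fmo5*-/- replicate 1) to 3. Over all genes the 229 calls became 53 with a mean of 500 required before the fit, 1989 with no filter and 1395 with DESeq2. They became 31 without *Fmo5*-/- replicate 1 and 763 without *Fmo5*-/- replicate 3. The causes were not tested.

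The log2 ratio of the summed near-identical genes was -1.29 to -0.68 when 1 library was left out, that of the sequence-distinct genes -0.50 to -0.23, and the difference of the ratios, -0.66, ran from -0.90 to -0.37. None of these sums changed sign, and *Mup21* was the 1 gene of the 10 that did. No scaling moved the median of all genes by more than 0.1. The search for windows unique in the genome was not run. No paired analysis was possible because the labels give the mice no shared replicate numbers. Every one of the 10 genes had at least 625 counts in each library, and there were 3 mice per genotype. The parts of reads that map to several places and of immune cells were not tested, and a batch tied to the sample numbers cannot be told apart from the genotype.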
